A study of Mus musculus with 6 samples.

Results

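The 10 genes described here are chromatin regulators with a known part in muscle cell differentiation. They are the class II deacetylases Hdac4, Hdac5, Hdac7 and Hdac9, the histone methyltransferases Ezh2 and Suv39h1, the arginine methyltransferases Carm1 and Prmt5, the demethylase Kdm1a and the remodelling subunit Smarcd3. They were chosen by name and found through the transcript accession of each array probe, which gave 1 probe for each gene. All 10 were among the 20659 named genes on the array, and all 10 probes were well above background on all 6 arrays. The samples were total RNA of C2C12, a mouse myoblast line that stops dividing and fuses into myotubes when induced to differentiate. The control group, si-NC, had 3 samples transfected with a control siRNA, and si-lncMGPF had 3 samples that received an siRNA targeting lncMGPF, a long noncoding RNA. No probe carries the name lncMGPF, so its own level was not checked here. Both groups were differentiated for 2 days and read on 1-colour expression arrays, and the comparison asks which transcripts change when lncMGPF is knocked down. The labels do not say whether samples of a group came from separate cultures, and if they did not, the p-values reflect technical spread alone.

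Class IIa deacetylases have little enzyme activity of their own. They bind MEF2 factors at muscle genes and recruit corepressor complexes there, and kinases release them to the cytoplasm through 14-3-3 proteins when myoblasts differentiate. Ezh2, the catalytic subunit of Polycomb repressive complex 2, and Suv39h1, which methylates lysine 9 of histone H3, keep muscle genes silent in myoblasts. Smarcd3, also called BAF60C, links MyoD to the SWI/SNF remodelling complex, while Carm1, Prmt5 and Kdm1a help muscle promoters to open.

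Values are log2 signals after subtraction of the array's 75th percentile, so a value of 0 lies at that percentile. Signals of different probes cannot be set against each other, and only the same probe is compared between arrays here. The 75th percentile was 492.1 to 930.7 intensity units on the 6 arrays. By scan identifier, slide 1 held all 3 si-NC arrays together with replicate 1 of si-lncMGPF. Slide 2 held its replicates 2 and 3 and no control. Negative control spots read 20.1 to 21.82 units on slide 1 and 37.29 and 42.49 units on slide 2. Of 9 skeletal muscle markers, 8 were above background on all arrays. The summed level of the 9 was 88.2 to 94.3 times the 75th percentile signal in si-NC. It was 71.0 to 89.8 in si-lncMGPF, so the ranges overlap. By log2 change 4 of the 9 were positive and 5 negative, from -0.74 to 0.13 with a median of -0.15. That median was -0.0026 on slide 1 and -0.18 on slide 2. Groups did not overlap for 3 of the 9 (33.3%), beside 23% of all tested probes. Among markers of other lineages Adipoq, Sp7, Ibsp and Cdh5 were not well above background on any array. Above it on all arrays were 2 of 5 adipocyte, 1 of 4 osteoblast and 3 of 5 endothelial and leukocyte markers. In summed level, 5 fibroblast markers gave 27.2 to 29.8 in si-NC and 21.1 to 26.4 in si-lncMGPF. Most of that sum came from Dcn and Pdgfrb. Of the 4 fibroblast markers tested 1 was positive and 3 negative, with a median of -0.43 on slide 1 and -0.15 on slide 2. The 5 endothelial and leukocyte markers summed to 3.89 to 4.802 in si-NC and 2.63 to 3.63 in si-lncMGPF. They did not share a direction. Itgam had a log2 change of -1.10 and Pecam1 of 0.66, and 3 of the 4 tested were negative. The part of these differences in the values below was not tested. In RNA of a whole culture, fewer cells of a type and less RNA per cell cannot be told apart.

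Promoter windows from RefSeq (build GRCm38.p6, 250 bases before the transcript start to 50 after it) were matched for 9 of the 10 genes, in 14 windows. Of these, 7 held letters that were searched for factors of myogenesis or of the cell cycle. The 4 below show each kind of letters found except CACCTG, with 1 window a gene and the letters in capitals. The others with a match, not printed, were 1 window of Hdac7 and a second one of Hdac9 with CAGCTG, and 1 of Suv39h1 with CACCTG. Both strands were searched, and no capitals of different motifs overlap in the windows shown. The letters were the E-boxes CAGCTG and CACCTG of MyoD-type factors, CTA and TAG with any 4 bases between them for MEF2, and TTTCCCGC, TTTGGCGC and TTTCGCGC of E2F. The MEF2 search was loose, and the 4 inner bases were TTTT in Hdac5 and GCTT in Hdac9. A match describes the window and is not a measured binding site.
Smarcd3 (chr5:24601953-24602252, minus strand), with CAGCTG: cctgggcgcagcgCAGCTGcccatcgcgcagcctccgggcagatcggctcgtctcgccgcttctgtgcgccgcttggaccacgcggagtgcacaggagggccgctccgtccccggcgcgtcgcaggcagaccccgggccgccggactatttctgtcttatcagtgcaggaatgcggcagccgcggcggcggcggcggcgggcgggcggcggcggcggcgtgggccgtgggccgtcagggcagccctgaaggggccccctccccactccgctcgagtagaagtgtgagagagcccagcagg
Ezh2 (chr6:47594981-47595280, minus strand), with TTTGGCGC: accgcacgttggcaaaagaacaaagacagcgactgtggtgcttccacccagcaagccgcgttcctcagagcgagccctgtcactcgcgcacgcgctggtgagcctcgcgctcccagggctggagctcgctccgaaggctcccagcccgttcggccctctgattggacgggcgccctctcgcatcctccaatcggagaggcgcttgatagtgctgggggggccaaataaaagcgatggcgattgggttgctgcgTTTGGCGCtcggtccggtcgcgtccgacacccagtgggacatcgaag
Hdac5 (chr11:102230123-102230422, minus strand), with CTATTTTTAG: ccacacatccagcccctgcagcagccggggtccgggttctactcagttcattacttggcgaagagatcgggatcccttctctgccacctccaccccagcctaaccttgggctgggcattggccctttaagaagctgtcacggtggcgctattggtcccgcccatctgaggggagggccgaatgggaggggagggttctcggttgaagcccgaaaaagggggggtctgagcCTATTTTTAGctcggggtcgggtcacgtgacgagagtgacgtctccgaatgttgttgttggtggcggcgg
Hdac9 (chr12:34528840-34529139, minus strand), with CAGCTG and CTAGCTTTAG: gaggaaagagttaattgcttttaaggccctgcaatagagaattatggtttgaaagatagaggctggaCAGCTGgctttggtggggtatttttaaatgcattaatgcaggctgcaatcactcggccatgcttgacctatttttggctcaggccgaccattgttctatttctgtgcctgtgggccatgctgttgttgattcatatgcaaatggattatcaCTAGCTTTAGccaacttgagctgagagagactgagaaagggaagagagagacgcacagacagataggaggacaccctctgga

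Of the 14 windows 4 held CAGCTG, which 16.37% of 32544 RefSeq windows of that length held. The MEF2 letters stood in 2 of the 14, against 3.7% of all windows. E2F letters stood in 1, against 1.86%, and CACCTG in 1, against 20.28%. Some genes of these factors were read on the same arrays. Mef2c had a log2 change of 0.78 (SE 0.21, adjusted p = 0.223), on a dim probe whose groups did not overlap. Mef2a had a log2 change of 0.0030 (SE 0.10), Mef2d of -0.021 (SE 0.11), E2f1 of -0.069 (SE 0.11) and Myod1 of 0.06 (SE 0.11).

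None of the 10 chromatin regulators passed the threshold, an adjusted p below 0.05 by limma over all tested probes. Of all 24661 tested probes 0.105% passed, 0.0284% as higher and 0.077% as lower in si-lncMGPF. At an unadjusted p below 0.05 the count was also 0 of 10, where 15.8% of all tested probes lay. The fitted difference was positive for 6 genes and negative for 4, and its size did not exceed 1.19-fold for any of them. The median absolute log2 change was 0.16 over the 10 genes and 0.15 over all tested probes. In this fit, which leaves slide out, all 95% intervals lay between a 1.43-fold fall and a 1.54-fold rise. For 9 genes they lay within 1.5-fold in either direction. With slide as a fixed block, where 1 si-lncMGPF array gives the estimate, the largest log2 changes were -0.37 for Hdac9 and 0.33 for Suv39h1. A change within the bounds above is not shown to be absent, and as slide was left out, neither is a larger one.

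**Figure D1:**
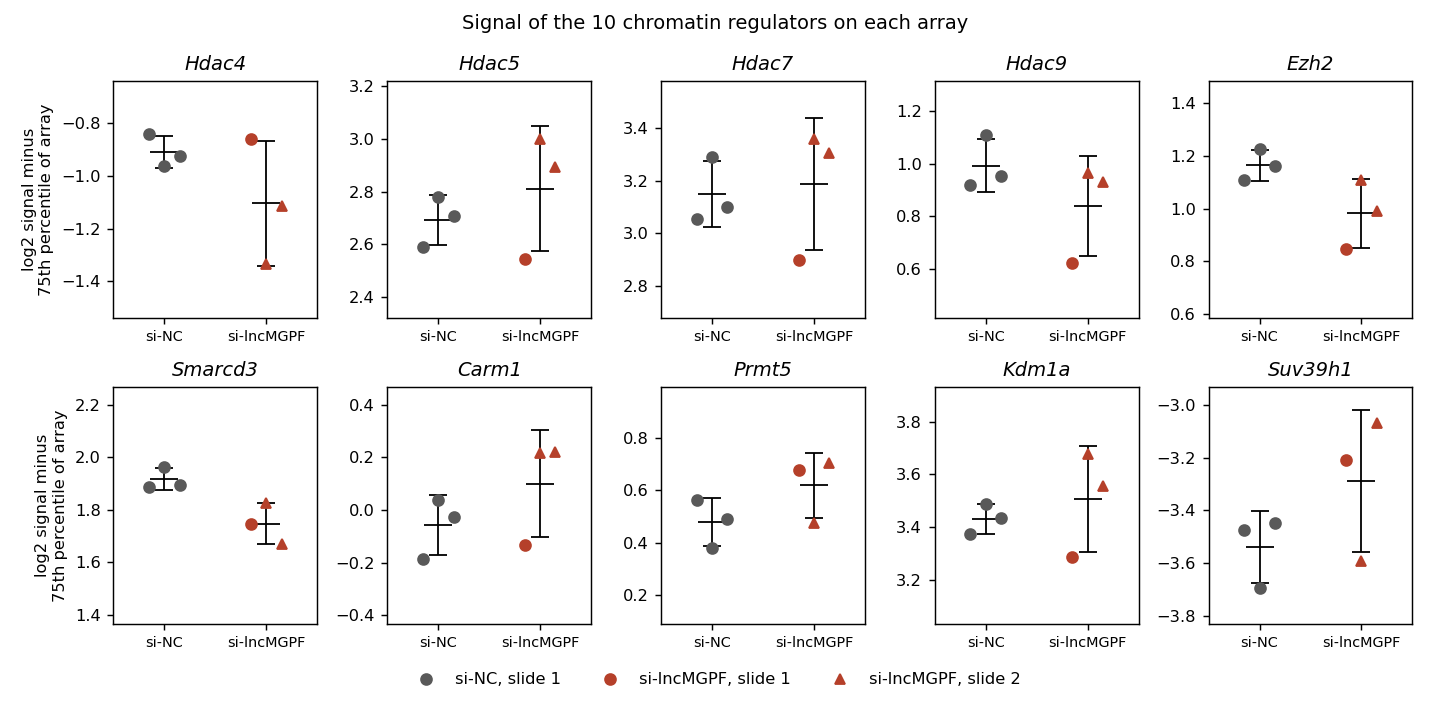
Log2 signal minus the array's 75th percentile (vertical axis, same span of 0.9 in each panel) of the 10 chromatin regulators on the 3 si-NC and 3 si-lncMGPF arrays. Circles are slide 1, triangles slide 2, and bars the mean ± SD (n = 3). The groups do not overlap for Smarcd3, where si-lncMGPF reads 1.67 to 1.83 and si-NC 1.89 to 1.96.

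Smarcd3 was the member with the smallest p. In replicate order the signal was 1.89, 1.96 and 1.90 in si-NC and 1.75, 1.83 and 1.67 in si-lncMGPF. Every si-lncMGPF array lay below every si-NC array. The log2 change was -0.17 (SE 0.09, 95% interval -0.38 to 0.039, adjusted p = 0.384). It was -0.17 for the slide 1 array and -0.17 for the mean of the slide 2 arrays, each against the same si-NC arrays. Smarcd3 was the only 1 of the 10 whose groups did not overlap, and 23% of all tested probes showed no overlap (13.4% with si-lncMGPF lower), so that share is not a result about these genes.

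By Pearson correlation over the 6 arrays, among 16566 named probes above background on all of them, the genes with the profile most like Smarcd3 were Lifr (0.998), Nup153 (0.995), Rpl24 (0.995), Serinc2 (0.994) and Lrp6 (0.993). Lifr is a receptor for leukemia inhibitory factor, Nup153 a nuclear pore protein, Rpl24 a ribosomal protein and Lrp6 a Wnt coreceptor. These values describe likeness over arrays that share 2 slides and carry no test. Among the partners of Smarcd3, 11 of 12 SWI/SNF subunits were tested and 0 passed. Of these, 6 had a positive and 5 a negative change, with a median of 0.038. The catalytic subunit Smarca4 (BRG1) had -0.04 (SE 0.11), while a dimmer probe of it had 0.21. The core subunit Smarcc2 had 0.29 (SE 0.10, adjusted p = 0.258), with 0.20 on slide 1 and 0.33 on slide 2.

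The class IIa deacetylases did not share a direction. Hdac4, which represses MEF2 targets and rises in denervated muscle, read -0.84, -0.96 and -0.92 in si-NC and -0.86, -1.34 and -1.12 in si-lncMGPF. The slide 1 si-lncMGPF array lay inside the si-NC range and both slide 2 arrays lay below it. Its log2 change was -0.20 (SE 0.13, 95% interval -0.52 to 0.12, adjusted p = 0.487).

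Hdac5, a target of calcium-dependent kinases and protein kinase D, read 2.59, 2.78 and 2.71 in si-NC and 2.54, 2.998 and 2.89 in si-lncMGPF. Hdac7, the main family member of endothelium and thymus that also occurs in myoblasts, read 3.05, 3.29 and 3.10 in si-NC and 2.90, 3.36 and 3.31 in si-lncMGPF. For both genes the slide 1 si-lncMGPF array lay below all si-NC arrays and the slide 2 arrays above all of them. The log2 change over all arrays was 0.12 for Hdac5 (SE 0.14, 95% interval -0.21 to 0.45, adjusted p = 0.683). For Hdac7 it was 0.039 (SE 0.15, 95% interval -0.31 to 0.39, adjusted p = 0.909).

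Hdac9, whose short form MITR lacks the catalytic domain, read 0.92, 1.11 and 0.95 in si-NC and 0.62, 0.97 and 0.93 in si-lncMGPF. The slide 1 array was the lowest of the 6 and the slide 2 arrays lay within the si-NC range. The log2 change was -0.15 (SE 0.12, 95% interval -0.45 to 0.14, adjusted p = 0.549). A single probe cannot separate the isoforms of these genes.

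Of the other deacetylases, the 7 of class I, IIb and IV had a median change of 0.043 and 0 passed. The class I enzyme Hdac1, which acts with MyoD in myoblasts, had 0.13 (SE 0.17, adjusted p = 0.721) on its brightest probe and -0.018 and 0.25 on the others. The tubulin deacetylase Hdac6 had -0.14 (SE 0.08, adjusted p = 0.417) and -0.16 on a second probe. Of 5 sirtuins 0 passed (median 0.077). On slide 1 alone 0 of the 5 were positive (median -0.19), and without si-lncMGPF replicate 1 all 5 were (median 0.22). Sirt6 had 0.11 on the brighter and -0.046 on the dimmer probe. Of 9 corepressor partners 0 passed. Among them Gps2, a subunit of the NCoR complex that holds Hdac3, had -0.38 (SE 0.10, adjusted p = 0.223) and -0.26 on its second probe, and the Sin3 scaffold gene Sin3b had 0.06 (SE 0.14) on its brighter probe and -0.43 (SE 0.36, adjusted p = 0.569) on a dimmer one.

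The kinases and 14-3-3 proteins that move class IIa deacetylases out of the nucleus numbered 14, with 0 past the threshold, 7 positive, 7 negative and a median of -0.02. Camk2b, a calcium/calmodulin-dependent kinase, read -3.58, -3.35 and -3.53 in si-NC and -3.97, -3.76 and -3.88 in si-lncMGPF. Its groups did not overlap, and the log2 change was -0.38 (SE 0.11, adjusted p = 0.223), with -0.48 on slide 1 and -0.33 on slide 2. The probe was dim, at -3.48 in si-NC. The slides differ in the level of negative control spots, and the part of that level in this change was not tested. The 14-3-3 gene Ywhae had -0.067 (SE 0.11).

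Of 13 genes listed as class IIa deacetylase and MEF2 targets 12 were tested and 0 passed, with 6 positive, 6 negative and a median of -0.0092. Mef2c, itself a MEF2 target, had the change of 0.78 given above, with 0.27 on slide 1 and 1.03 on slide 2. Its probe was dim, at -5.18 in si-NC. The acetylcholine receptor subunit gene Chrna1 had 0.10 (SE 0.09) on its brightest probe and -0.0030 on the other.

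Ezh2 read 1.11, 1.23 and 1.16 in si-NC and 0.84, 1.11 and 0.99 in si-lncMGPF. Replicates 1 and 3 of si-lncMGPF lay below all si-NC arrays, and replicate 2 overlapped the lowest of them. The log2 change was -0.18 (SE 0.10, 95% interval -0.42 to 0.058, adjusted p = 0.406), with -0.32 on slide 1 and -0.11 on slide 2.

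Of the 10 partners of Ezh2 and erasers of its mark 0 passed, and 7 had a positive change, with a median of 0.067. On slide 1 alone 3 of 10 were positive (median -0.073), and without si-lncMGPF replicate 1 all 10 were (median 0.19). The histone-binding subunits Rbbp4 and Rbbp7 had 0.26 (SE 0.09, adjusted p = 0.275) and 0.20 (SE 0.10, adjusted p = 0.392), and second probes of them had 0.30 and 0.40. Rbbp4 read 4.17, 4.19 and 4.20 in si-NC and 4.31, 4.48 and 4.54 in si-lncMGPF, with no overlap of the groups. Ezh2 is a gene of dividing cells, and 12 proliferation genes were read beside it. Of these 0 passed, 7 were positive and 5 negative, and the median was 0.013, with -0.23 on slide 1 and 0.13 on slide 2. Rrm2, a ribonucleotide reductase subunit, had 0.08. Aurkb, a mitotic kinase, had -1.57 (SE 0.50, adjusted p = 0.246), with -0.30 on slide 1 and -2.21 on slide 2.

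Suv39h1 read -3.47, -3.70 and -3.45 in si-NC and -3.21, -3.59 and -3.07 in si-lncMGPF. Replicates 1 and 3 of si-lncMGPF lay above all si-NC arrays and replicate 2 lay within their range. Its log2 change of 0.25 was the largest in size of the 10 (SE 0.16, 95% interval -0.12 to 0.62, adjusted p = 0.452), and its probe was the dimmest of them, in the second lowest of 5 equal bins of mean signal. On slide 1 the change was 0.33 and on slide 2 it was 0.21. Of 11 other genes of histone H3 lysine 9 methylation 0 passed, with 6 positive, 5 negative and a median of 0.018. On slide 1 alone 1 was positive and 10 negative (median -0.17), and with slide as a random block 2 were positive and 9 negative. Setdb1, another writer of this mark, had -0.20 (SE 0.10, adjusted p = 0.355), and Ehmt2 (G9a), which also methylates MyoD, had 0.018 (SE 0.15).

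Carm1, a coactivator that methylates arginines of histone H3, read -0.18, 0.038 and -0.025 in si-NC and -0.13, 0.22 and 0.22 in si-lncMGPF. The slide 1 si-lncMGPF array lay within the si-NC range and the slide 2 arrays above it. The log2 change was 0.16 (SE 0.13, 95% interval -0.15 to 0.47, adjusted p = 0.560). Prmt5, which places symmetric arginine methylation with its partner Wdr77, read 0.56, 0.38 and 0.49 in si-NC and 0.68, 0.48 and 0.70 in si-lncMGPF. Replicates 1 and 3 lay above all si-NC arrays and replicate 2 inside their range. The log2 change of Prmt5 was 0.14 (SE 0.10, 95% interval -0.11 to 0.39, adjusted p = 0.517), with 0.20 on slide 1 and 0.11 on slide 2.

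The 8 other arginine methyltransferase genes and partners had 7 members tested, and 0 passed. All 7 had a positive change, with a median of 0.20, where the median of all tested probes was 0.012. The count was 6 of 7 after quantile normalization, normexp or cyclic loess, 5 of 7 with slide as a random block and 3 of 7 on slide 1. Of 14265 tested named genes 7702 had a positive change by their brightest probe. Wdr77 had 0.26 (SE 0.14, adjusted p = 0.395), and Clns1a, a second Prmt5 partner, had 0.24 (SE 0.12, adjusted p = 0.361). Prmt1, the main asymmetric arginine methyltransferase, had 0.17 (SE 0.12, adjusted p = 0.483) on its brightest probe and 0.36 (adjusted p = 0.221) on another.

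Kdm1a, which removes methyl groups from lysine 4 of histone H3 and acts with MyoD, read 3.37, 3.49 and 3.43 in si-NC and 3.29, 3.68 and 3.56 in si-lncMGPF. Again the slide 1 si-lncMGPF array lay below all si-NC arrays and the slide 2 arrays above them. The log2 change was 0.076 (SE 0.12, 95% interval -0.21 to 0.37, adjusted p = 0.769).

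Of 12 genes of histone H3 lysine 4 methylation 11 were tested and 0 passed, with a median of 0.067. Kmt2d, an enhancer methyltransferase, read -1.88, -1.71 and -1.80 in si-NC and -2.17, -2.41 and -2.44 in si-lncMGPF on its brighter probe. The groups did not overlap, and the log2 change was -0.55 (SE 0.11, adjusted p = 0.175), with -0.38 on slide 1 and -0.63 on slide 2. A second, dimmer probe of Kmt2d had -0.18 (adjusted p = 0.512). Setd7, which methylates lysine 4 and favours muscle gene expression, had -0.018 (SE 0.13).

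**Figure D2:**
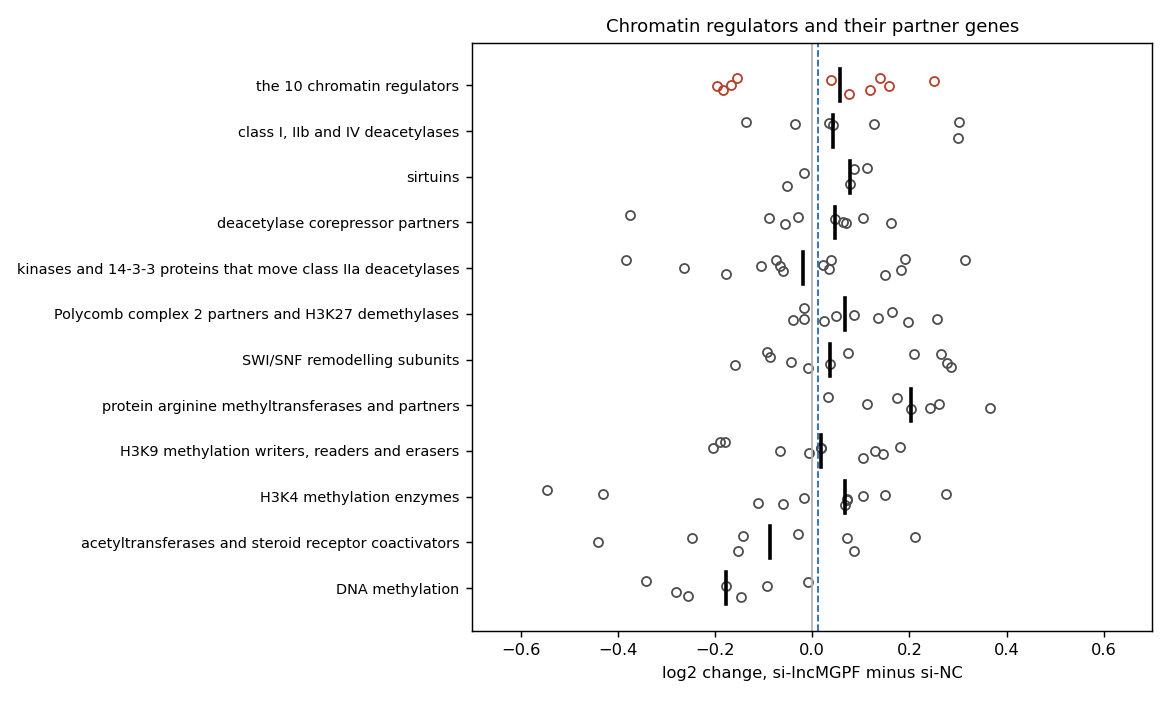
Log2 change, si-lncMGPF minus si-NC (horizontal axis), of the 10 chromatin regulators and of the partner genes in each list, with 1 circle per gene (brightest probe). Black bars are list medians and the dashed line is the median of all tested probes, 0.012. The 7 arginine methyltransferase genes and partners all lie above 0 and the 7 DNA methylation genes all lie below it. On slide 1 alone these counts were 3 of 7 and 5 of 7.

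Acetyltransferases and steroid receptor coactivators, which act with Carm1, had 8 genes tested, 0 past the threshold and a median of -0.086. Crebbp, the CBP acetyltransferase, had -0.44 (SE 0.19, adjusted p = 0.324), with -0.054 on slide 1 and -0.64 on slide 2, and Kat2a, another acetyltransferase, had -0.03 (SE 0.13) and -0.20 (SE 0.10, adjusted p = 0.386) on its 2 probes. All 7 DNA methylation genes had a negative change and 0 passed (median -0.18). After median centring or with slide as a random block 6 of the 7 were negative. On slide 1 alone, and also without si-lncMGPF replicate 1, 5 of the 7 were. Of 14265 tested named genes 6563 had a negative change by their brightest probe. The de novo DNA methyltransferase gene Dnmt3a had -0.28 (SE 0.09, adjusted p = 0.258), with -0.31 on slide 1 and -0.26 on slide 2. Uhrf1, which brings DNA methyltransferase to replicating DNA, had -0.093 (SE 0.11) and -0.060 (SE 0.09) on its 2 probes.

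Together the lists of partner genes held 103 genes, of which 100 were tested on 159 probes. By limma 0 of the 159 probes passed, and 20 had an unadjusted p below 0.05, a share of 12.6% beside 15.8% of all tested probes. Groups did not overlap for 28 of the 159 (17.6%), beside 23% of all tested probes. On slide 1 alone the median change was negative in 13 of the 13 lists, those of MEF2 targets and proliferation genes included. It was also negative over all tested probes (-0.040) and over all 14265 tested named genes by their brightest probe (-0.073). In the brightest of 5 equal bins of mean signal it was -0.11, so the direction is not particular to these lists.

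The si-lncMGPF arrays were also compared by slide, with 1 array on slide 1 and 2 on slide 2. The SD within si-NC, whose arrays share slide 1, was 0.041 to 0.14, and that within si-lncMGPF was 0.078 to 0.27. It was larger in si-lncMGPF for 10 of 10 genes and for 83.9% of all tested probes. Within si-lncMGPF the difference between the slide 2 mean and the slide 1 array had a median size of 0.33 on the log2 scale over the 10 genes and of 0.27 over all tested probes. Changes on slide 1 and slide 2 had opposite signs for 5 genes, Hdac4, Hdac5, Hdac7, Carm1 and Kdm1a, and for 45.8% of all tested probes.

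Hdac5, Hdac7 and Kdm1a had the slide 1 si-lncMGPF array below the si-NC range and both slide 2 arrays above it, a pattern that 13% of all tested probes showed. All of them lay in the brightest of the 5 bins of mean signal, where 29.4% showed it. In that bin the median change was -0.11 on slide 1 and 0.13 on slide 2. The changes of Hdac5 were -0.15 and 0.25, those of Hdac7 -0.25 and 0.18, and those of Kdm1a -0.14 and 0.19. Within si-lncMGPF, sample and slide cannot be told apart.

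**Figure D3:**
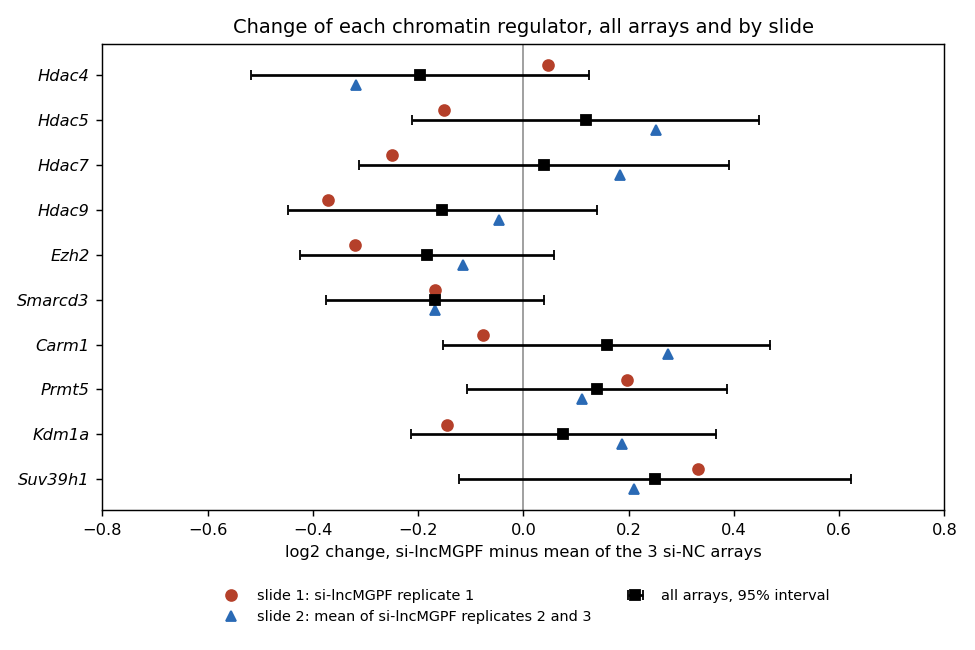
Log2 change (horizontal axis) of each chromatin regulator in si-lncMGPF against the mean of the 3 si-NC arrays. Squares with bars are the fit over all 6 arrays with its 95% interval, circles the slide 1 array and triangles the mean of the 2 slide 2 arrays. Every interval spans 0, and circle and triangle coincide at -0.17 for Smarcd3 while they fall on opposite sides of 0 for 5 genes.

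Smarcd3, Ezh2 and Hdac9 kept a negative change, and Prmt5 and Suv39h1 a positive one, under the alternatives listed in the closing section that could move an estimate. Of the 20 alternatives 6 change the test, the probes tested or the source of the same values and leave every estimate as it is, and the other 14 gave 13 different sets of estimates. Smarcd3 ranged from -0.21 to -0.13, Ezh2 from -0.32 to -0.11 and Hdac9 from -0.37 to -0.046. Prmt5 ranged from 0.072 to 0.21 and Suv39h1 from 0.14 to 0.40. The adjusted p over these settings was never below 0.0579 for Ezh2, Hdac9, Prmt5 and Suv39h1, and for Smarcd3 it was 0.0279 with array weights. That fit called 3 of the 10 genes, Smarcd3, Hdac4 (log2 change -0.21, adjusted p = 0.0473) and Carm1 (0.23, adjusted p = 0.0481). It called 10149 of all 24661 tested probes, a larger share, so the 3 calls are not a result about these genes. The estimated array weights ran from 0.125 for si-lncMGPF replicate 1 to 9.39 for si-NC replicate 3. The other 19 settings called 0 of the 10.

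**Figure D4:**
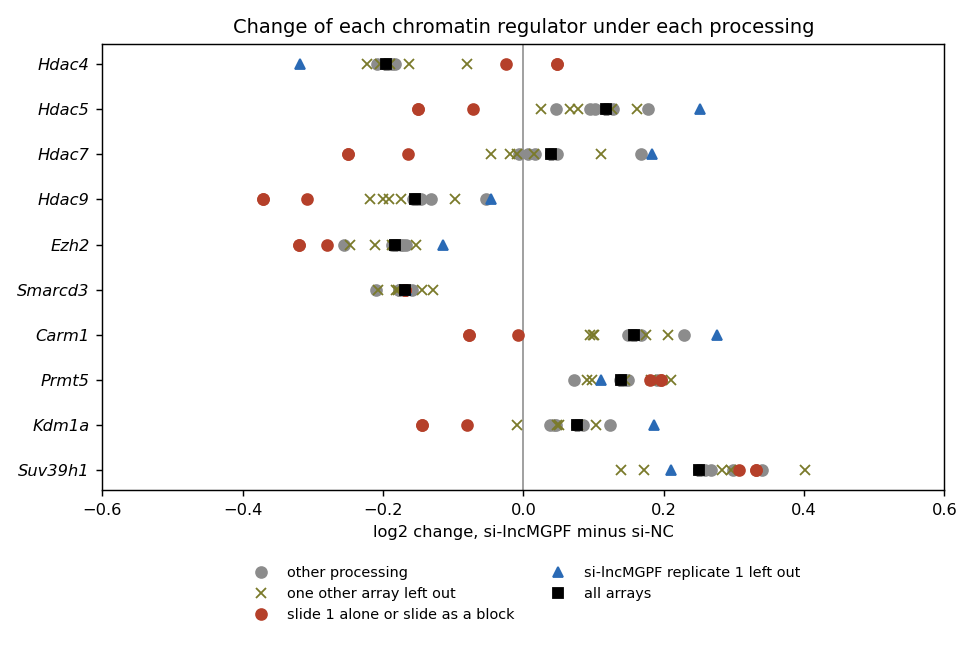
Log2 change (horizontal axis) of each chromatin regulator under every processing tried. Black squares are the fit over all arrays, blue triangles the fit without si-lncMGPF replicate 1, red circles the fits on slide 1 alone or with slide as a block, crosses the fits without another array and grey circles the other settings. The slide 1 and blue marks lie on opposite sides of 0 for Hdac4, Hdac5, Hdac7, Carm1 and Kdm1a, while Smarcd3 stays between -0.21 and -0.13.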

How the data were processed

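Total RNA of 6 C2C12 samples, 3 per group by the siRNA in the titles, was labelled with Cy3 and read on 1-colour Agilent mouse arrays, per the labels. The deposited scanner tables hold linear intensity values that Feature Extraction 11.0.1.1 had background-subtracted, per the file headers. In the series table the authors gave the same intensity values at 44397 of 44397 spots on each array, with no scaling between arrays; its column medians were 38.31 to 74.34.

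Log2 processed signals were scaled to each array's 75th percentile, outlier spots (117 to 134 per array) were left out, and spots of a probe were averaged. No spot was saturated. A probe entered the test when at least 1 group had it above background throughout, which left 24661. Accessions without versions were matched to a RefSeq gene table of build GRCm38.p6, used for names because the arrays name another build, and 27234 of 39429 probes were named. The group difference was fitted without covariates by lmFit and eBayes of limma 3.58.1 (R 4.3.3), and p-values were adjusted by Benjamini-Hochberg over tested probes. The number of arrays limits the precision.

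The 10 members and the lists were chosen with earlier results of these data known. All member probes are named. In each list the gene with the smallest p and the gene with the brightest probe are named, 1 probe (the brightest) standing for a gene, and further probes are given where they were tested. Other genes given are those whose letters were searched in promoters, markers not above background, Dcn and Pdgfrb, and Itgam and Pecam1. Dcn and Pdgfrb had the brightest probes of the fibroblast markers. Itgam and Pecam1 had the lowest and the highest change in their marker list. Genes most like Smarcd3 were taken by correlation. Alternatives were quantile normalization, median centring, normexp with an offset of 50 on median spot signals, other filters, an intensity trend, weights per array, blocks for slide or for replicate number, slide 1 alone, the series table, a test for a fold over 1.2, leaving out each array and, chosen after seeing the data, cyclic loess. Figures were drawn with matplotlib 3.10.9.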

Additional observations from a re-analysis of the deposited data

How the results depend on the processing

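The 10 chromatin regulators were fitted under 20 alternatives, and of the log2 changes obtained 178 kept direction and side of the threshold, 3 passed it and 19 changed sign. In 6 of the 20 the estimates could not move, since only the test or the set of probes differed or the values were the same. With slide as a fixed block or slide 1 alone, which give the same estimate from 1 si-lncMGPF array, the change was -0.077 for Carm1, 0.047 for Hdac4, -0.15 for Hdac5, -0.25 for Hdac7 and -0.14 for Kdm1a. With slide as a random block it was -0.0081 for Carm1, -0.071 for Hdac5, -0.17 for Hdac7 and -0.080 for Kdm1a. Normexp gave -0.0057 for Hdac7. Leaving out 1 array in turn gave -0.047 to 0.18 for Hdac7 and -0.0092 to 0.19 for Kdm1a. The cause of these changes of sign was not tested.

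The count of called member probes was 0 in each fit other than that with array weights, where it was 3. Leaving out 1 array in turn gave 0 to 0 called members. For the wider chromatin lists the count was 57 of 159 with array weights, and 0 to 14 when leaving out 1 array in turn. With array weights 10149 of all 24661 tested probes passed, a larger share than in these lists or the members. The 14 came without si-lncMGPF replicate 1, where group and slide coincide. There 4105 of 24661 probes passed, again a larger share. Over all probes the count of 26 became 10149 with array weights, 0 without a filter, where more probes were tested, 8 with normexp, 6 with quantile normalization, 1 on slide 1 alone, 10 with slide as a fixed block and 6 for a fold over 1.2. Leaving out 1 array in turn gave 0 to 4105: 0 without any 1 of the si-NC arrays or without replicate 3 of si-lncMGPF, 4 without its replicate 2 and 4105 without its replicate 1.

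With the replicate number as a block 0 probes were called (4430 at an unadjusted p below 0.05), 0 of them members. Deviations of same-numbered samples from their group means correlated at 0.18, 0.32 and -0.058 for numbers 1, 2 and 3. Of 6 samples 4 correlated best with their own number. These values do not settle whether the numbers pair samples. The main fit has no such block because the labels do not say that they do. Scaling moved the median of all tested probes by less than 0.1 on the log2 scale in the fits over all arrays. The slides differ in the level of negative control spots, and its part in the values of dim probes such as Suv39h1 was not tested.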
